A study of Homo sapiens with 8 samples.

Results

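ERBB2 encodes the receptor tyrosine kinase HER2. It was followed here with 8 neighbouring genes of chromosome 17 (GRB7, STARD3, PGAP3, MIEN1, TCAP, CDK12, MED1 and PSMD3) through every probe set that names one of these genes alone. That gave 35 of the 49293 probe sets that are not array controls, for 9 of 18239 genes. The genes lie in a stretch of 18 protein-coding genes from MED1 to PSMD3 in the RefSeq gene order (assembly GRCh38.p14), with PGAP3 and MIEN1 next to ERBB2 on either side. Single-colour Affymetrix arrays measured total RNA of cultured cells in 4 groups with 2 arrays each. The groups were SKBrM3 with doxycycline, SKBrM3 without it, 231BrM with doxycycline and 231BrM without it. Both are labelled as breast cancer cell lines, and in both the drug switches on a short hairpin RNA that targets MET (shMet). Doxycycline was given at 100 ng, with no volume in the labels, for 48 h. No group received the drug without having the hairpin, so drug and hairpin cannot be told apart. The labels do not say whether a line is 1 clone or whether a group's 2 arrays stand for 2 cultures, and the p-values therefore reflect array-to-array spread that could be technical alone.

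HER2 has no known ligand of its own and signals by pairing with the other receptors of its family, EGFR, HER3 and HER4. In a subset of breast cancers a piece of 17q12 is present in many copies, and the genes on it are then transcribed at high levels together, ERBB2, GRB7, STARD3, PGAP3 and MIEN1 among them. The name SKBrM3 is used in published work for a brain-metastatic derivative of SK-BR-3, a line known for such an amplification, and 231BrM for a derivative of MDA-MB-231, which lacks it. The labels give neither parent.

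The stretch in front of ERBB2 is shown because the starts of ERBB2 and PGAP3 used here lie next to each other and point apart. The stretch in front of MIEN1 is shown because MIEN1 was the neighbour that differed most between the lines. RefSeq start windows (250 bases before to 50 after the start, GRCh38.p14) were found for 7 of the 9 genes. Each of these genes has 1 window here, and other start sites of a gene, ERBB2 included, were not searched. Which start site these cells use was not measured. GRB7 and TCAP are named only. The ERBB2 window is chr17:39687844-39688143 on the plus strand. The MIEN1 window is chr17:39730483-39730782 on the minus strand. Capitals mark CCGGAAG, the core bound by ETS transcription factors, on either strand.
ERBB2: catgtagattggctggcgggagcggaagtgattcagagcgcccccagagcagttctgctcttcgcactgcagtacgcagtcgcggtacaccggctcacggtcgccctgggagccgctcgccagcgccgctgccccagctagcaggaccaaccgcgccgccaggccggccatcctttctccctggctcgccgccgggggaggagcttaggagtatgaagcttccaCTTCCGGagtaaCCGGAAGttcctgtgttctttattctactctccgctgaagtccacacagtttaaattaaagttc
MIEN1: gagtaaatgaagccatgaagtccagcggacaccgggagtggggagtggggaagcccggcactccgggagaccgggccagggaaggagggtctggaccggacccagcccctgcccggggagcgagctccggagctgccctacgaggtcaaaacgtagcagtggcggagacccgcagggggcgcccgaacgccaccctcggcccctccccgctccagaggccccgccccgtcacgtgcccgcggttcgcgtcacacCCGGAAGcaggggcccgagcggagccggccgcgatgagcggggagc
The ERBB2 start used here lies 37 bases from that of PGAP3 on the other strand, and their windows share 136 bases. The core occurs 2 times in the ERBB2 window, 26 and 14 bases before the start, and both copies also lie in the PGAP3 window. In all, 4 of the 7 windows hold it (ERBB2, PGAP3, STARD3 and MIEN1), against 10.3% of 35116 RefSeq windows of the same length. The AP-2 motif GCCNNNGGC was found in 2 of the 7 (23.2% of all windows), CCAAT in 3 (34.6%) and TATAAA in 0 (11.5%), searched on both strands, and no match overlapped one of another motif. A match is a description of these letters, not a binding site. A motif absent from a window may be present at a start site that was not searched.

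All values are the deposited RMA values, which are on the log2 scale, so a difference of 1 is a doubling. Testing was limited to probe sets that lay above 4.41 (40th percentile of the table) on 2 or more arrays. This left 31156 probe sets, 30 of the 35 among them. The other 5 were 1 each of ERBB2, GRB7 and PSMD3 and 2 of PGAP3. MET, the target of the hairpin, stood at 5.76 and 5.71 with doxycycline against 9.25 and 9.20 without it on the SKBrM3 arrays, and at 5.85 and 5.35 with doxycycline against 9.45 and 9.26 without it in 231BrM. Replicate 1 of 231BrM with doxycycline stood apart in its actin controls, whose 3' probe set exceeded the 5' one by 1.24 log2 units. On the remaining 7 arrays that excess lay between 0.46 and 0.59. A higher 3' signal is a sign of shorter RNA.

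ERBB2 did not pass the test between the lines, with or without doxycycline. Its brightest probe set (11736472_a_at) read 7.11 and 6.92 on the SKBrM3 arrays with doxycycline, 6.70 and 6.72 on those without, 6.89 and 6.76 on the 231BrM arrays with doxycycline and 6.87 and 6.76 on those without. Without doxycycline both SKBrM3 arrays lay below both 231BrM arrays, and with doxycycline both lay above. Without doxycycline the difference, SKBrM3 minus 231BrM, was -0.10 log2 units (standard error 0.097, 95% interval -0.33 to 0.13, limma adjusted p = 0.455, 2 arrays per group). With doxycycline it was 0.18 (standard error 0.097, 95% interval -0.04 to 0.41, limma adjusted p = 0.181). A level measured in a culture is a mean over its cells, so fewer cells with the transcript and less transcript per cell cannot be told apart.

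**Figure D1:**
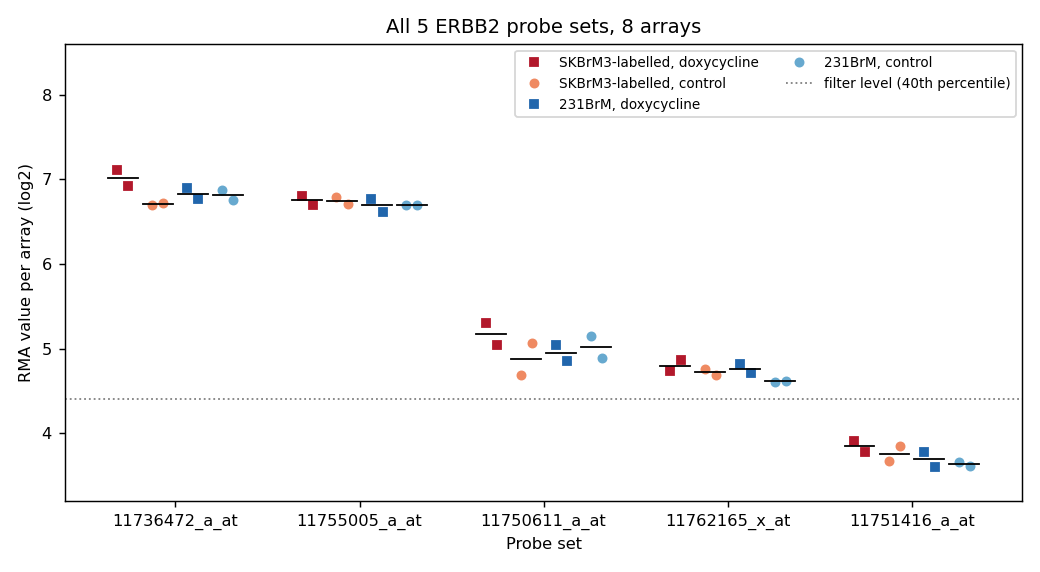
RMA value (log2, vertical axis) of each of the 5 ERBB2 probe sets (horizontal axis) on the 8 arrays. Squares are doxycycline arrays, circles control arrays, black bars group means of 2 arrays and the dotted line the filter level of 4.41; within each probe set the 4 groups lie close together, and 11751416_a_at lies below the filter level on every array.

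Of the 5 ERBB2 probe sets 4 were tested. Their differences between the lines ran from -0.14 to 0.11 without doxycycline, 2 above 0 and 2 below, and from 0.04 to 0.22 with doxycycline, all above 0. None of the 4 passed in either state, with the smallest limma adjusted p at 0.326 without doxycycline and 0.181 with it. Without 231BrM doxycycline replicate 1 the 4 differences with doxycycline were 0.08 to 0.32, and none passed. The highest upper limit of the 95% intervals was 0.31 log2 units without doxycycline (11762165_x_at) and 0.61 with it (11750611_a_at). The remaining probe set, 11751416_a_at, read 3.60 to 3.91 over the 8 arrays and was not tested.

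GRB7 encodes an adaptor that binds HER2 and other receptors through its SH2 domain, and it usually shares the amplified segment with ERBB2. Its tested probe set read 5.14 and 4.56 on the SKBrM3 arrays with doxycycline, 5.14 and 5.19 on those without, 5.15 and 5.19 on the 231BrM arrays with doxycycline and 5.09 and 5.12 on those without. All arrays but 1 lay within a narrow band, and SKBrM3 doxycycline replicate 2 lay below it. The line difference was 0.06 without doxycycline (limma adjusted p = 0.804) and -0.32 with it (limma adjusted p = 0.187). Without SKBrM3 doxycycline replicate 2 the value with doxycycline was -0.03, and without replicate 1, which leaves the low array alone in its group, it was -0.61 (limma adjusted p = 0.011). The second GRB7 probe set read 3.54 to 3.65 on all arrays, below the filter level.

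MIEN1, which encodes a small membrane-anchored protein linked to cell migration, was the exception. Its single probe set (11716981_x_at) read 8.89 and 9.03 on the SKBrM3 arrays with doxycycline, 8.88 and 8.97 on those without, 8.35 and 8.16 on the 231BrM arrays with doxycycline and 8.14 and 8.25 on those without. The 4 SKBrM3 arrays all lay above the 4 231BrM arrays. MIEN1 was 1.66-fold higher in SKBrM3 without doxycycline (log2 difference 0.73, standard error 0.102, 95% interval 0.49 to 0.97, limma adjusted p = 0.00189) and 1.63-fold higher with it (log2 difference 0.70, standard error 0.102, 95% interval 0.46 to 0.94, limma adjusted p = 0.00207). Without 231BrM doxycycline replicate 1 the value with doxycycline was 0.80. In the RefSeq table the MIEN1 gene overlaps the span of ERBB2, and the suffix _x_at marks probe sets whose probes can bind related transcripts, so this difference rests on 1 probe set that no other could check.

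**Figure D2:**
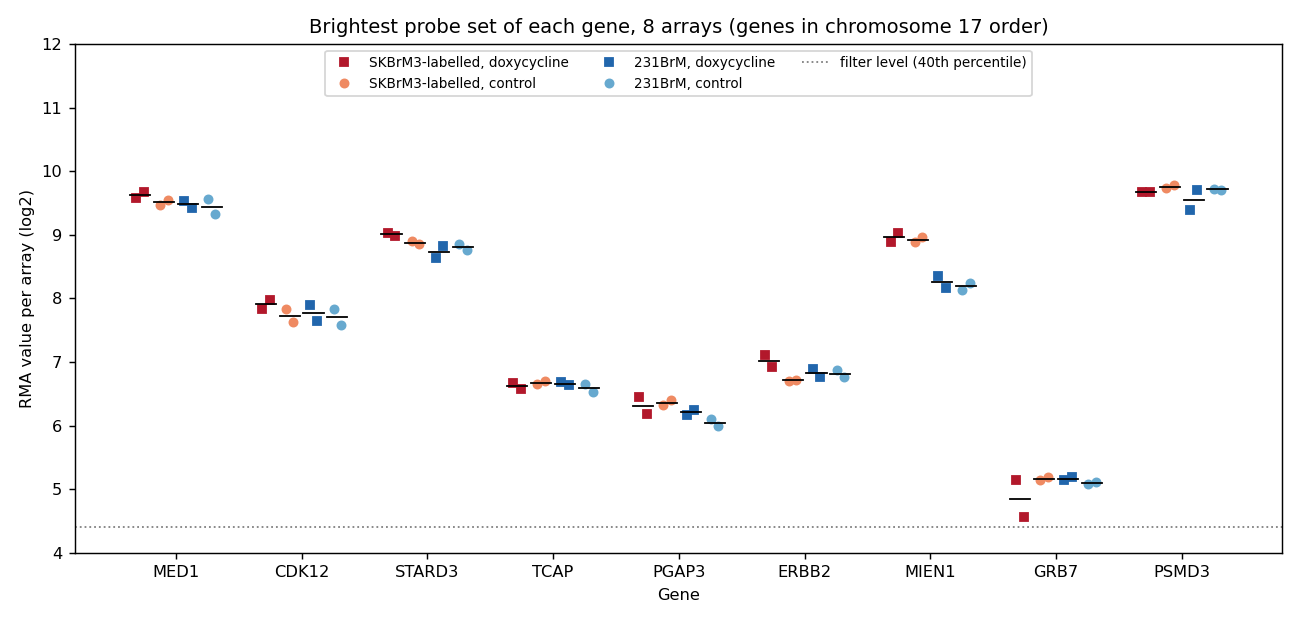
RMA value (log2, vertical axis) of the brightest probe set of ERBB2 and the 8 neighbours on the 8 arrays, with genes in chromosome 17 order (horizontal axis). Squares are doxycycline arrays, circles control arrays and black bars group means of 2 arrays; MIEN1 shows 4 SKBrM3 arrays from 8.88 to 9.03 above 4 231BrM arrays from 8.14 to 8.35, and ERBB2 lies between 6.70 and 7.11 on all 8.

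PGAP3, a Golgi enzyme that remodels the lipid of GPI anchors, gave mixed values. Its brightest probe set (11747015_a_at) read 6.45 and 6.19 on the SKBrM3 arrays with doxycycline, 6.32 and 6.41 on those without, 6.17 and 6.25 on the 231BrM arrays with doxycycline and 6.10 and 6.0 on those without. The groups without doxycycline did not overlap and those with it did. The line difference was 0.31 without doxycycline (standard error 0.106, limma adjusted p = 0.0572) and 0.11 with it (limma adjusted p = 0.48). A further 2 PGAP3 probe sets passed with doxycycline, 11716916_a_at at 0.41 (limma adjusted p = 0.0314) and 11754914_x_at at 0.25 (limma adjusted p = 0.0309), while without doxycycline they stood at -0.07 each. Without 231BrM doxycycline replicate 1 these 2 differences were 0.32 and 0.23, and neither passed (limma adjusted p = 0.0744 and 0.0603). In that same fit the brightest PGAP3 probe set did pass between the lines without doxycycline, at an unmoved 0.31 (limma adjusted p = 0.0313).

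STARD3 encodes a cholesterol-binding protein of late endosomes. Its brightest probe set (11758753_a_at) read 9.04 and 8.98 on the SKBrM3 arrays with doxycycline, 8.91 and 8.85 on those without, 8.63 and 8.82 on the 231BrM arrays with doxycycline and 8.86 and 8.76 on those without. With doxycycline the SKBrM3 arrays lay above the 231BrM arrays, and without it the groups overlapped. The line difference was 0.28 with doxycycline (standard error 0.091, limma adjusted p = 0.0479) and 0.07 without it (limma adjusted p = 0.601). The lowest array was 231BrM doxycycline replicate 1, the array with the raised 3' signal, and without it the difference with doxycycline was 0.19 (limma adjusted p = 0.131). The 5 STARD3 probe sets had differences from 0.05 to 0.51 with doxycycline and from 0.02 to 0.13 without it. The 0.51 belonged to 11745302_a_at and was 0.19 without that array, and the range with doxycycline was then 0.07 to 0.27.

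For the other 4 genes no probe set passed between the lines. TCAP encodes telethonin, a protein of the muscle sarcomere, and its 2 probe sets differed by 0.09 and 0.15 without doxycycline and by -0.03 and 0.06 with it. CDK12 encodes a kinase that phosphorylates the tail of RNA polymerase II, and its 6 probe sets had differences from -0.16 to 0.07 without doxycycline and from -0.28 to 0.21 with it. MED1 is a subunit of the Mediator complex that links transcription factors to the polymerase, and its 3 probe sets had differences from 0.06 to 0.22 without doxycycline and from 0.12 to 0.42 with it. PSMD3 is a subunit of the regulatory particle of the proteasome, and its 3 tested probe sets had differences from -0.03 to 0.04 without doxycycline and from 0.13 to 0.28 with it. These values with doxycycline moved in both directions when 231BrM doxycycline replicate 1 was left out. Without that array the MED1 range was -0.01 to 0.24, where the 0.42 of 11721008_a_at had become -0.01. The other MED1 probe sets rose, the brightest (11721009_at) from 0.15 to 0.21 and 11721007_a_at from 0.12 to 0.24. The brightest CDK12 probe set (11739636_s_at) rose from 0.14 to 0.27. The PSMD3 range was then -0.04 to 0.21 and the CDK12 range -0.16 to 0.27, again with no probe set past the threshold.

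Counted over all tested probe sets of the 9 genes, 1 of 30 passed between the lines without doxycycline, that of MIEN1, and it was higher in SKBrM3. Of all 31156 probe sets 33.2% passed in that comparison (16.2% higher in SKBrM3). With doxycycline 4 of 30 passed, all higher in SKBrM3 (MIEN1, STARD3 and 2 of PGAP3), against 35.6% of all probe sets (16.9% higher in SKBrM3). An unadjusted limma p under 0.05 was reached by 2 of 30 without doxycycline (44.1% of all probe sets) and by 8 of 30 with it (45.4%). In the comparison with doxycycline MIEN1 alone passed without 231BrM doxycycline replicate 1, and likewise without SKBrM3 doxycycline replicate 2 or without either 231BrM control array, while 2 passed without any 1 of the other SKBrM3 arrays and 12 without 231BrM doxycycline replicate 2. The median difference of the 30 was 0.05 without doxycycline and 0.15 with it, beside 0.05 and 0.01 over all probe sets tested. Over all 35, with no filter, the medians were 0.05 and 0.13.

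**Figure D3:**
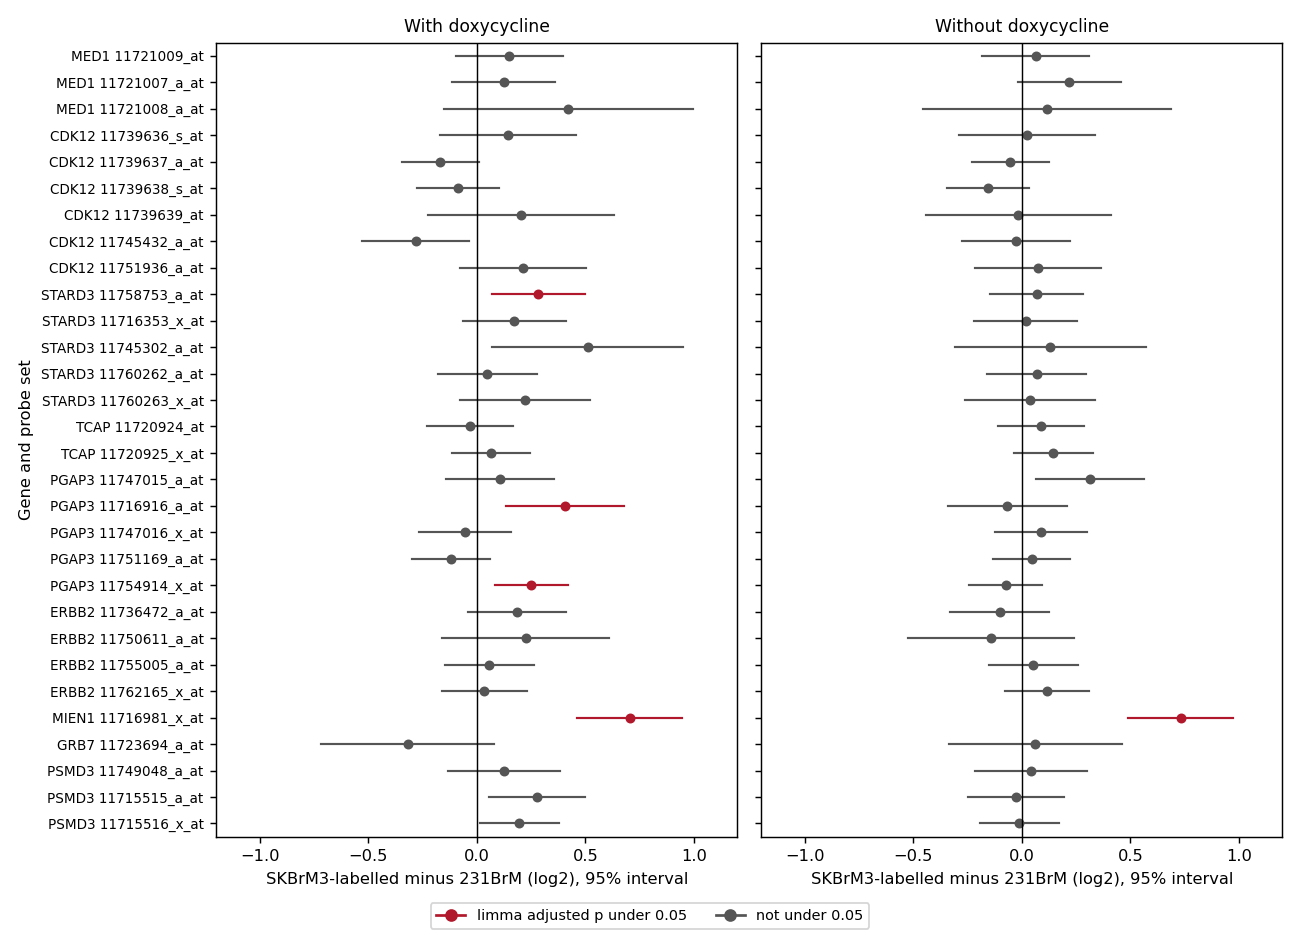
Difference between the lines (SKBrM3 minus 231BrM, log2, horizontal axis) for the 30 tested probe sets (vertical axis, in chromosome 17 order), with doxycycline on the left and without on the right. Points are limma estimates from 2 arrays per group, bars 95% intervals and red marks a limma adjusted p under 0.05; MIEN1 is red in both panels, at 0.70 and 0.73.

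A list of 33 further genes of the region, some between these 9 and the rest to either side, held passing genes in both directions. Of the 28 tested, 3 were higher and 3 lower in SKBrM3 without doxycycline, and 4 were higher and 4 lower with it, by the brightest probe set of each gene. Over all genes 17.2% were higher and 18% lower without doxycycline, and 17.6% were higher and 20% lower with it. The median of the 28 was 0.08 without doxycycline and 0.01 with it, beside 0.05 and -0.01 over all genes tested. FBXL20, an F-box protein gene next to MED1, was higher in SKBrM3 by 0.55 log2 units without doxycycline (limma adjusted p = 0.00241). With doxycycline it was higher by 0.28 (limma adjusted p = 0.0349). RARA, which encodes a retinoic acid receptor, had log2 differences of -0.46 without doxycycline and -0.59 with it, both past the threshold, while its 6 tested probe sets ranged from -0.46 to 0.19 and from -0.63 to 0.48. MSL1, of a histone acetylation complex, was lower in SKBrM3 without doxycycline (log2 difference -0.36), with its 5 probe sets from -0.54 to 0.12. With doxycycline the MSL1 difference was -0.27 (limma adjusted p = 0.0359), and 1 of its 5 probe sets passed. Without doxycycline the RARA call held in 13 of 15 alternatives and the MSL1 call in 11. MED24, another Mediator subunit, was higher by 0.42 with doxycycline and THRA, a thyroid hormone receptor gene, by 0.49, the THRA call in 14 of 15 alternatives. In that comparison 4 of 10 tested MED24 probe sets passed (range -0.03 to 1.08), and 3 of 6 of THRA (-0.02 to 0.67). Without doxycycline MED24 was higher by 0.24 and passed (limma adjusted p = 0.0377). The THRA difference without it was 0.23 and did not pass (limma adjusted p = 0.117).

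**Figure D4:**
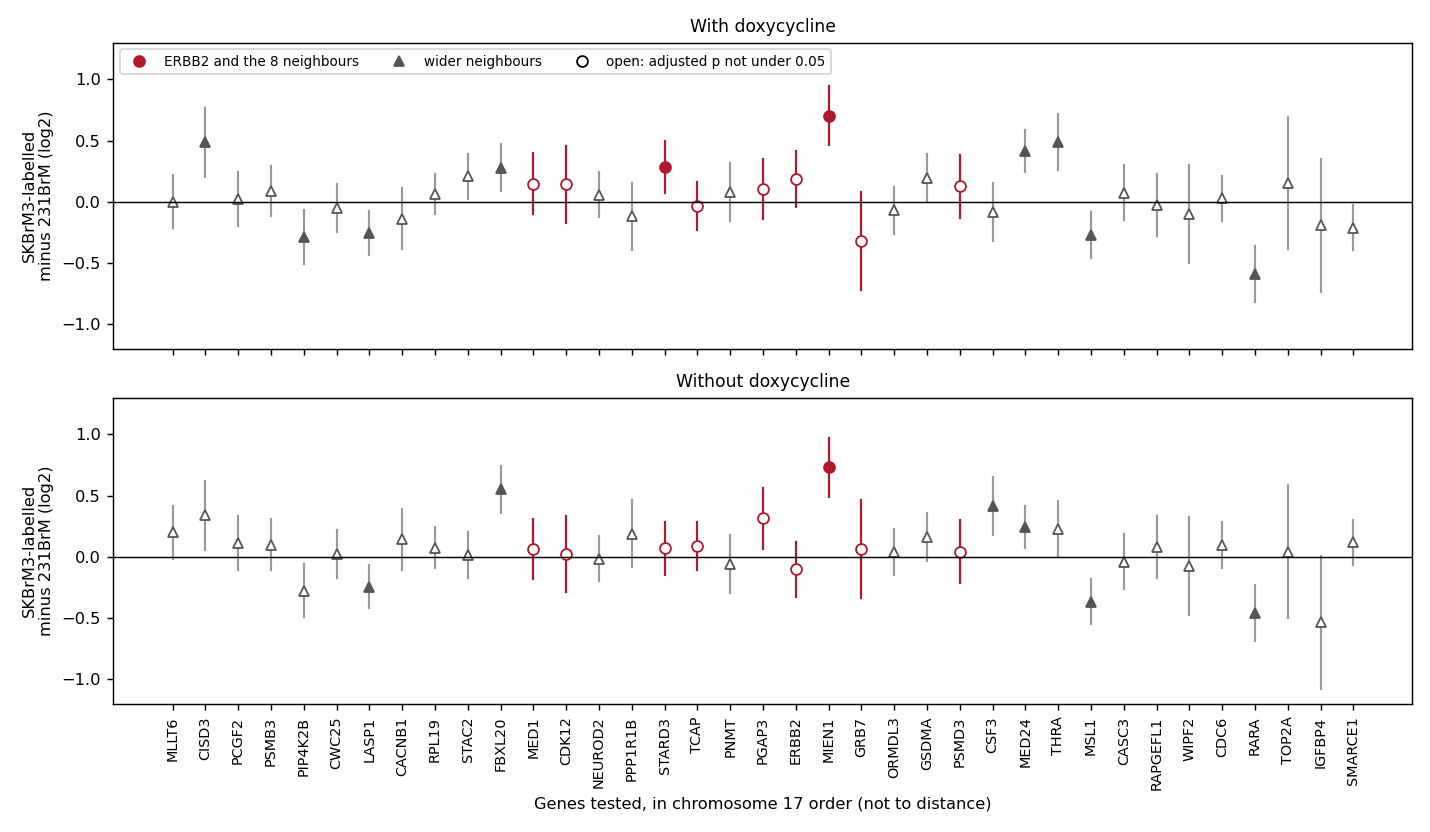
Difference between the lines (SKBrM3 minus 231BrM, log2, vertical axis) for the brightest probe set of each tested gene in chromosome 17 order (horizontal axis, not to distance), with doxycycline above and without below. Circles are ERBB2 and its 8 neighbours, triangles the wider list, bars 95% intervals and filled symbols a limma adjusted p under 0.05; filled symbols lie on both sides of 0 and the MIEN1 point stands between ERBB2 and GRB7 points that are open.

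The partners of HER2 were read from a list of 22 receptors and proximal signalling genes. Without doxycycline 0 of 18 tested were higher in SKBrM3 and 5 were lower, and with it 1 was higher and 4 were lower. The shares over all genes were those given above, 17.2% higher and 18% lower without doxycycline and 17.6% and 20% with it. SHC1, an adaptor of activated receptors, was lower in SKBrM3 without doxycycline (log2 difference -1.08). So was CBL, a ubiquitin ligase that removes receptors from the surface (-0.90). With doxycycline the values were -1.02 for SHC1 and -0.85 for CBL, both past the threshold. For CBL 1 of its 4 tested probe sets passed in each state. PTPN12, a tyrosine phosphatase, was lower as well without doxycycline (-0.39), a call that held in 13 of 15 alternatives. With doxycycline PTPN12 also passed (-0.45). SRC, a kinase downstream of these receptors, was higher by 0.83 with doxycycline. Without it the SRC difference was 0.22 and did not pass (limma adjusted p = 0.0756). EGFR read 9.01 and 8.62 on the SKBrM3 arrays with doxycycline, 9.01 and 9.09 on those without, 8.04 and 9.99 on the 231BrM arrays with doxycycline and 9.62 and 9.70 on those without. Its 231BrM doxycycline arrays lay further apart than any other pair, and the 8.04 was replicate 1, the array with the raised 3' signal. Without doxycycline both SKBrM3 arrays lay below both 231BrM arrays, with a line difference of -0.61 (limma adjusted p = 0.413). The standard error of 0.53 takes in the spread of the 231BrM doxycycline pair, so this test does not settle whether the untreated lines differ in EGFR. ERBB3 (HER3) read 3.84 to 4.08 and ERBB4 (HER4) 4.02 to 4.39 over the 8 arrays, all below the filter level.

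Of 10 genes whose products are known to regulate ERBB2 transcription, 8 were tested. Without doxycycline 2 of the 8 were lower in SKBrM3 and 0 higher, and with it 3 were lower and 0 higher. Over all genes 18% were lower and 17.2% higher without doxycycline, and 20% and 17.6% with it. The AP-2 factor genes TFAP2C and TFAP2A were lower in SKBrM3. For TFAP2C the log2 difference was -1.49 without doxycycline and -1.13 with it. For TFAP2A it was -1.32 without and -1.0 with it, with 1 of its 3 probe sets passing. TFAP2C read 7.13 and 7.02 on the SKBrM3 arrays without doxycycline against 8.71 and 8.42 on the 231BrM arrays without it, which do not overlap. YBX1, a cold shock domain protein, was lower with doxycycline (-0.22, limma adjusted p = 0.0464), a call that held in only 5 of 15 alternatives (limma adjusted p over the 15 from 0.00113 to 0.17) and not without 231BrM doxycycline replicate 1. The other tested genes of this list did not pass between the lines.

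The label SKBrM3 was set against markers of an ERBB2-amplified luminal line. Of 19 such markers 14 were tested. ERBB2, GRB7 and STARD3 are among the markers, so the counts are not separate from the results for these genes. Without doxycycline 1 was higher in SKBrM3 than in 231BrM, the forkhead factor FOXA1 by 1.37 log2 units, and 6 were lower, among them the keratins KRT19 (-2.59) and KRT7 (-1.90). With doxycycline 2 were higher (FOXA1 and STARD3) and 4 lower. These markers were named after their values were seen. Of 16 markers of mesenchymal-like lines 15 were tested, and all 15 exceeded the filter level in both lines, with 7 lower in SKBrM3 in each state and 0 higher. Of 10 markers of fibroblasts, endothelium, leukocytes and glia, 6 were tested, with 2 lower in SKBrM3 in each state. Over all genes 18% were lower and 17.2% higher without doxycycline, and 20% and 17.6% with it. Levels within this last list of 10 varied. The leukocyte marker PTPRC read 3.36 to 3.46 and the collagen COL3A1 3.39 to 3.76, below the filter level. Other markers of the list lay above it, among them CD68 at 8.17 to 8.37, MBP at 7.41 to 8.08, PECAM1 at 5.18 to 5.71 and CD3E at 5.08 to 5.55. The arrays are called SKBrM3 here because they are labelled so. No ERBB2 or GRB7 probe set passed as higher on them, and KRT19 and KRT7 were lower. FOXA1 was higher on them in both states, and STARD3 with doxycycline.

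Induction of the MET hairpin moved no member past the threshold in either line. On the SKBrM3 arrays 0 of 30 probe sets passed (1.47% of all probe sets did), and 3 had an unadjusted p under 0.05 by limma (17.2% of all probe sets). These were the brightest ERBB2 probe set with a log2 difference of 0.30 (standard error 0.097, 95% interval 0.07 to 0.53, limma adjusted p = 0.187), and PGAP3 11716916_a_at at 0.36 and 11754914_x_at at 0.29 (limma adjusted p = 0.191 and 0.107). With array weights, which were lowest for the 231BrM doxycycline arrays, PGAP3 11754914_x_at did pass, at an unmoved 0.29 (limma adjusted p = 0.027). The brightest ERBB2 probe set did not pass in that weighted fit (limma adjusted p = 0.0604). For ERBB2 both doxycycline arrays, at 7.11 and 6.92, lay above both control arrays, at 6.70 and 6.72. The dimmer ERBB2 probe set 11750611_a_at read 5.30 and 5.04 with doxycycline against 4.69 and 5.07 without it, so its groups overlapped, with a difference of 0.29 (95% interval -0.09 to 0.68, limma adjusted p = 0.411). The ERBB2 probe set of nearly the same brightness as the first, 11755005_a_at, read 6.81 and 6.69 with doxycycline against 6.79 and 6.71 without it, and its difference was 0.00 with a 95% interval from -0.21 to 0.21.

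In 231BrM 0 of 30 passed (0.0578% of all probe sets), and 1 had an unadjusted p under 0.05 (8.06% of all probe sets), CDK12 11745432_a_at with a log2 difference of 0.26, which was 0.14 without doxycycline replicate 1. The brightest ERBB2 probe set had a log2 difference of 0.01 (95% interval -0.21 to 0.24, limma adjusted p = 0.968), and its doxycycline and control arrays overlapped. The MIEN1 values were 0.04 on the SKBrM3 arrays and 0.06 in 231BrM. In 231BrM several members were low on doxycycline replicate 1 alone. MED1 11721008_a_at read 7.33 and 8.19 with doxycycline against 8.11 and 8.19 without it, and its difference of -0.39 was 0.04 without that array. STARD3 11745302_a_at read 6.84 and 7.49 with doxycycline against 7.49 and 7.42 without it, and its difference of -0.28 was likewise 0.04 without that array. PSMD3 11749048_a_at read 9.39 and 9.71 with doxycycline against 9.72 and 9.71 without it, and its difference of -0.17 was -0.01 without that array.

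**Figure D5:**
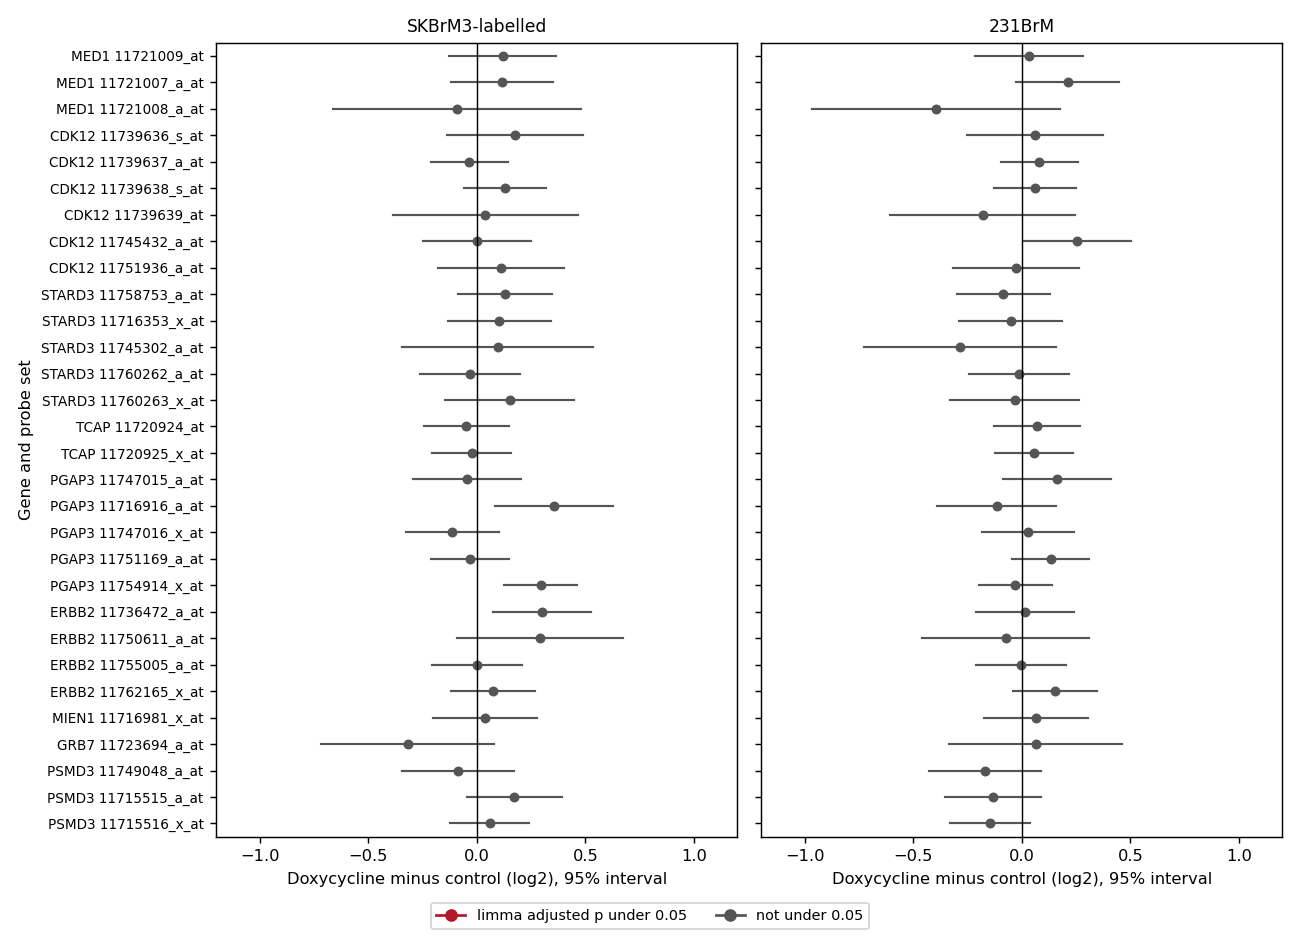
Doxycycline effect (doxycycline minus control, log2, horizontal axis) for the 30 tested probe sets (vertical axis), on the SKBrM3 arrays (left) and in 231BrM (right). Points are limma estimates from 2 arrays per group and bars 95% intervals; no point is red, so none had a limma adjusted p under 0.05, and the wide bars of MED1 11721008_a_at and STARD3 11745302_a_at belong to probe sets low on 231BrM doxycycline replicate 1.

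The doxycycline effects of the lines were compared with each other directly. Of the 30 probe sets 0 passed, as did 0 of all probe sets by limma (percent called 0), and 2 had an unadjusted p under 0.05 (9.4% of all probe sets), both of PGAP3. For the brightest ERBB2 probe set the difference of effects, SKBrM3 minus 231BrM, was 0.29 (standard error 0.137, 95% interval -0.03 to 0.61, limma adjusted p = 0.568). Among the lists, CSF3, a growth factor gene beside PSMD3, was lower with doxycycline on the SKBrM3 arrays (log2 difference -0.74), and so was ERRFI1, a feedback inhibitor of EGFR family receptors (-0.68). Each call held in 9 of 15 alternatives and was lost when a SKBrM3 array or a 231BrM control array was left out (limma adjusted p up to 0.185 for CSF3 and 0.241 for ERRFI1). Over all genes 1.19% were lower in that comparison, and 0.0769% passed in 231BrM. No gene of the regulators' list passed in either doxycycline comparison, and no gene of the wider neighbours or of the HER list passed in 231BrM. CSF3 and ERRFI1 had values of the same sign in 231BrM, -0.24 and -0.33 (limma adjusted p = 0.617 and 0.548). The difference of effects was -0.50 for CSF3 and -0.35 for ERRFI1, and neither passed (limma adjusted p = 0.442 and 0.506).

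Across the 8 arrays the genes whose values followed ERBB2 most closely were SIX5, CDCA5, PIP5K1C, ABTB1 and PRR14, with Pearson correlations from 0.94 to 0.97 among 13001 other genes. This is a ranking over 8 arrays that share 2 lines, given as a description. It orders small variation: ERBB2 spanned 0.41 log2 units over the 8 arrays. The standard deviations of the 5 genes ran from 0.037 (CDCA5) to 0.23 (PIP5K1C). None of the 8 neighbours was near the top. Their correlations with ERBB2 were 0.58 for MED1, 0.56 for CDK12, 0.43 for STARD3, 0.22 for PGAP3, 0.17 for MIEN1 and TCAP, -0.27 for GRB7 and -0.37 for PSMD3.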

How the data were processed

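Each array has 1 deposited log2 value for every probe set. Per the submitters' processing notes the authors used RMA, which corrects background, equalises the arrays' distributions and summarises probes; its version and the genome build were not stated in what was read. Equalised distributions hide changes of total RNA per cell. The table holds 49386 probe sets, with array medians from 4.92 to 4.97. Symbols were updated by gene ID through RefSeq. All probe sets passing the filter were fitted with limma 3.58.1 (R 4.3.3, lmFit and eBayes) as 4 group means over 8 arrays. Tests were two-sided, with Benjamini-Hochberg adjustment over 31156 probe sets and a threshold of 0.05. The number of arrays limits precision (4 residual degrees of freedom). Members and lists were chosen with earlier results of these data known. Of a list, up to 3 passing genes per comparison were named by smallest p, and the 5 genes most like ERBB2. The steps were run on simulated data with independent normal noise and changes added to the SKBrM3 doxycycline arrays only. That simulation had no outlying array and did not cover the comparisons between the lines. Alternatives were the filter, 1 probe set per gene, trended and weighted fits, fits on 4 arrays, a replicate block and leaving out each array. For ERBB2 alone the mean difference of its tested probe sets was added, without a test.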

Additional observations from a re-analysis of the deposited data

How the results depend on the processing

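In every alternative with a test the brightest ERBB2 probe set failed to pass in all 5 comparisons. Its log2 differences ran from -0.16 to -0.02 between the lines without doxycycline and from 0.09 to 0.28 with it. They were 0.17 to 0.40 for doxycycline on the SKBrM3 arrays, -0.05 to 0.08 in 231BrM and 0.14 to 0.38 for the difference of effects. These ranges include the mean difference of the 4 tested ERBB2 probe sets, a value without a test. That mean gave the ends -0.02, 0.17 and 0.14. MIEN1 passed between the lines in both states under all 15 alternatives. Counts of member probe sets that passed moved more. With doxycycline the 4 became 2 with 1 probe set per gene, 1 with array weights and 1 with the 4 arrays compared alone. Leaving out 1 array gave 1 to 12, the 12 without 231BrM doxycycline replicate 2, which leaves replicate 1 alone. Without doxycycline the 1 became 2 with 1 probe set per gene, with no filter, with the filter at the 60th percentile and with the 4 arrays alone, and 3 with array weights; leaving out 1 array gave 1 to 2. The brightest PGAP3 probe set passed in 8 of the 15 alternatives, 4 of them fits without 1 doxycycline array (limma adjusted p over the 15 from 0.0165 to 0.242). For doxycycline on the SKBrM3 arrays the 0 became 1 with array weights, and leaving out 1 array gave 0 to 1 (PGAP3 11754914_x_at). In 231BrM leaving out 1 array gave 0 to 4, and for the difference of effects 0 to 2. Replicate numbers were taken as names, since they are not said to pair arrays. Replicate 1 minus replicate 2 correlated at 0.45 between the control and doxycycline groups of 231BrM and at -0.02 between those of SKBrM3. Between groups of different lines the correlations ran from -0.07 to 0.12. The replicate block was common to both lines, so a pairing within 231BrM alone was not fitted. With the replicate block the counts were 4, 1, 0, 0 and 0, with 1 of PSMD3 in place of STARD3 among the 4.

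The whole table moved more than its members: doxycycline on the SKBrM3 arrays called 458 probe sets, 2828 with array weights and 2625 with the 4 arrays alone. For 231BrM the 18 became 0 with its 4 arrays alone. Leaving out 1 array gave 2 to 5306. The difference of effects called 0, against 6 in the trended fit, 5 with no filter and 3 with 1 probe set per gene, and 2116 without 231BrM doxycycline replicate 2.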
